A study of Mus musculus with 15 samples.

Results

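Sox3, Nkx6-2, Mapt and Crabp1 are 4 genes of the developing nervous system whose levels differed between mouse embryonic stem (ES) cell lines of different Srf genotype. They were chosen for those differences, so every value that compares the lines is given below as a description with its error and with no test. All probe sets annotated to them were read, which gave 8 probe sets for 4 genes, of 10276 probe sets for 8220 genes named by a single symbol on the array. A probe set is a group of short oligonucleotides, usually designed to read 1 transcript, and 7 of the 8 rose above the detection floor on enough arrays to be tested.

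The array set covers 3 ES cell lines. The rescue line (E100-/- rescue) derives from Srf-null cells, and how Srf was restored is not given in the sources used here. The Srf-null line (E100-/-) lacks Srf, and the wild-type line is E14wt. Each line was sampled at 0, 10, 30, 60 and 180 min of stimulation with fetal bovine serum, with 1 Affymetrix MGU74A array for each line and time, 15 arrays in all. The labels describe 1 line per genotype, so a difference between genotypes cannot be told apart from a difference between these particular lines, and the 5 time points of a line stand in for its replicates.

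Srf encodes serum response factor, a transcription factor that serum and the actin cytoskeleton use to switch genes on. Sox3 is an X-linked transcription factor of the SoxB1 family that keeps neural progenitors undifferentiated. Nkx6-2 is a homeodomain transcription factor that patterns the ventral neural tube and later acts in oligodendrocytes. Mapt encodes tau, which binds and stabilises microtubules in axons. Crabp1 encodes a cytoplasmic protein that binds retinoic acid, the vitamin A derivative that patterns the hindbrain and is widely used to drive ES cells towards neurons.

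RefSeq promoters on build GRCm38.p6 were available for 2 of the 4 genes, and both are shown because these genes stood at opposite ends of the rescue line. Each runs from 250 bases before the transcription start to 50 after it, 5′ to 3′ on the gene's strand, with capitals marking the GC box GGGCGG and the CCAAT box on either strand. The Nkx6-2 promoter lies at chr7:139582748-139583047 on the minus strand, and the Crabp1 promoter at chr9:54764498-54764797 on the plus strand. Sox3 lies on chromosome X and Mapt on chromosome 11.
Nkx6-2: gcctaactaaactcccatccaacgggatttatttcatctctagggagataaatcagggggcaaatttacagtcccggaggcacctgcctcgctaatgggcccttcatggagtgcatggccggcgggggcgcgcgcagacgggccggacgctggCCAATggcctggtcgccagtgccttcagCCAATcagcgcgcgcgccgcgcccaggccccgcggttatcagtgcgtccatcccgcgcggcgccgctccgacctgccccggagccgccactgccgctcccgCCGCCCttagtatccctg
Crabp1: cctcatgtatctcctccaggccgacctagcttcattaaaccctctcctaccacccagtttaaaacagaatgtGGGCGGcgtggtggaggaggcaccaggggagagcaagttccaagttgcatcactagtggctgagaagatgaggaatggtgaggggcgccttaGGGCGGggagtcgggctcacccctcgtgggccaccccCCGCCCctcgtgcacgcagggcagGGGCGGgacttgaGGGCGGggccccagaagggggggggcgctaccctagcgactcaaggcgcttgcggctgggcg
The Nkx6-2 window held 1 GC box and 2 CCAAT boxes, with 66.67% G and C. The Crabp1 window held 5 GC boxes and 0 CCAAT boxes, with 65% G and C. A GC box was present in 35.7% and a CCAAT box in 37.4% of 32851 mouse promoters of the same length. The CArG box, the element SRF binds, had 0 matches in either window and was present in 1.63% of promoters. TATAAA (13.6% of promoters) and AGGTCA, the letters of a retinoid receptor half-site (16.3%), also had 0 matches in both. A match describes the letters of the window only.

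Values below are normalized intensities, made comparable between arrays by quantile normalization. Values under 84.98 (log2 6.41) were treated as not above background, and log2 differences were computed with such values raised to that floor. A difference from a line at the floor is therefore understated, and its SE leaves out the spread of the values raised to the floor. The 0 min arrays stood apart from the later arrays of their lines. Igf2 read -1829 on the rescue 0 min array and -1853 on the wild-type 0 min array, against 5942 to 10240 on the later rescue arrays and 2640 to 5223 on the later wild-type arrays. On the Srf-null arrays Igf2 was below 0 throughout. Eif2s3y, a Y-linked gene, read 134 in wild-type cells at 0 min, whereas their later arrays read 1435 to 2078. It read 104 to 290 on the Srf-null arrays and 309 to 502 on the rescue arrays. Actg1, a cytoplasmic actin, read 8891 and 9783 on the rescue and wild-type 0 min arrays, against 27390 to 41633 on the later arrays of both lines. The Srf-null arrays read 7327 to 14004 for Actg1 throughout. The low 0 min values of Igf2 and Actg1, and of Eif2s3y in wild-type cells, were thus within or near the Srf-null range. The 3′ to 5′ signal ratio of the actin control, a sign of RNA quality that rises with degradation, was 4.22 on the rescue 0 min array and 7.53 on the wild-type 0 min array, against 0.914 to 1.42 and 0.847 to 2.11 later in the same lines. On the Srf-null arrays it was 2.94, 1.79, 1.64, 3.83 and 1.94 from 0 to 180 min. Raised ratios were thus not confined to the 0 min arrays, and the 12 later arrays keep those of the Srf-null line. What sets these arrays apart was not tested, and every line difference is given with all 15 arrays and with the 12 arrays from 10 min on. A second technical feature also varied: 37.1% to 41.6% of values were 0 or negative on 5 arrays (Srf-null at 30, 60 and 180 min, rescue at 0 and 10 min), against 24.9% to 30.9% on the other 10. Srf had 0 probe sets with a name of its own, so the genotype could not be checked on the targeted gene.

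The cells carried the markers of ES cells. Of 12 pluripotency genes, 10 were above the floor on all 15 arrays, with Pou5f1 at 13035 to 26003 in rescue, 16317 to 27191 in Srf-null and 12562 to 26738 in wild-type cells. Of 6 measured markers of committed neural progenitors, 0 were above the floor on all arrays and Pou3f3 was above it on none. Their summed intensity was 1032 to 1727 in rescue, 1290 to 2074 in Srf-null and 755 to 1370 in wild-type cells. Of 10 neuronal markers, 1 was above the floor on all arrays, and Elavl4, Nefm and Snap25 were above it on none. Their sum was 2481 to 4515 in rescue, 1813 to 4013 in Srf-null and 2561 to 3153 in wild-type cells. Of 5 glial markers, 0 were above the floor on every array and Mog was above it on none, with sums of 1143 to 1312, 816 to 1425 and 887 to 1802 in the same lines. Markers of embryonic fibroblasts, on which ES cells are often grown, summed to 11155 to 12080 in rescue, 8116 to 11628 in Srf-null and 7932 to 11030 in wild-type cells. Of these 13 markers, 3 were above the floor on all arrays, Fn1 gave most of the sum, and Col1a2 and Pdgfra were above the floor on none. The part of any such cells in the results was not tested. In RNA of whole cultures, a change in the share of cells that express a gene and a change in RNA per cell cannot be told apart.

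Sox3 was high in the rescue line from 10 min on and low in both other lines. On probe set 103301_i_at, rescue cells read 49 at 0 min and then 2714, 2744, 4141 and 2609 at 10, 30, 60 and 180 min. Srf-null cells read 552, 268, 245, 186 and 111, and wild-type cells 229, 194, 120, 212 and 272. From 10 min on, all 4 rescue arrays lay above every array of the other lines, while the Srf-null and wild-type ranges overlapped. At 0 min the order was turned, with the rescue array below the floor and lowest of the 3.

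The difference on 103301_i_at between rescue and Srf-null cells was 3.96 ± 0.39 on the log2 scale over 12 arrays (SE, n = 4 each), a 15.6-fold higher level in rescue cells. With all 15 arrays it was 2.63 ± 0.89 (SE, n = 5 each). Rescue exceeded wild-type cells by 3.97 ± 0.39 over 12 arrays and by 2.89 ± 0.89 over 15. By size the value ranked 1 over 12 arrays and 4 over 15 among 9558 tested probe sets in rescue against wild-type cells, and 5 and 16 in rescue against Srf-null cells. The gene was chosen for such differences, so nothing is read from these ranks. Srf-null minus wild-type was 0.00 ± 0.39 and 0.26 ± 0.89, both within their errors.

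The second Sox3 probe set, 103302_r_at, was designed on the same source sequence and showed the same order from 10 min on with a smaller difference. Rescue cells read 832, 2390, 2405, 3832 and 2292 from 0 to 180 min. Srf-null cells read 4301, 490, 1047, 572 and 607, and wild-type cells 1402, 557, 1012, 686 and 746. All rescue arrays after 0 min again lay above all arrays of the other lines at those times, and the Srf-null 0 min array was the highest of the 15. Rescue minus Srf-null was 2.04 ± 0.24 over 12 arrays and 1.16 ± 0.55 over 15. Rescue minus wild-type was 1.86 ± 0.24 and 1.34 ± 0.55, and Srf-null minus wild-type was -0.17 ± 0.24 and 0.18 ± 0.55. By size this probe set ranked 53 over 12 arrays and 165 over 15 in rescue against wild-type cells, and 69 and 351 in rescue against Srf-null cells. The third, 92264_at, from another source sequence, was above the floor on 0 of 15 arrays and at or below 0 on 14, so it gave no level in any line. Sox3 thus rested on 2 probe sets that share 1 source sequence.

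**Figure D1:**
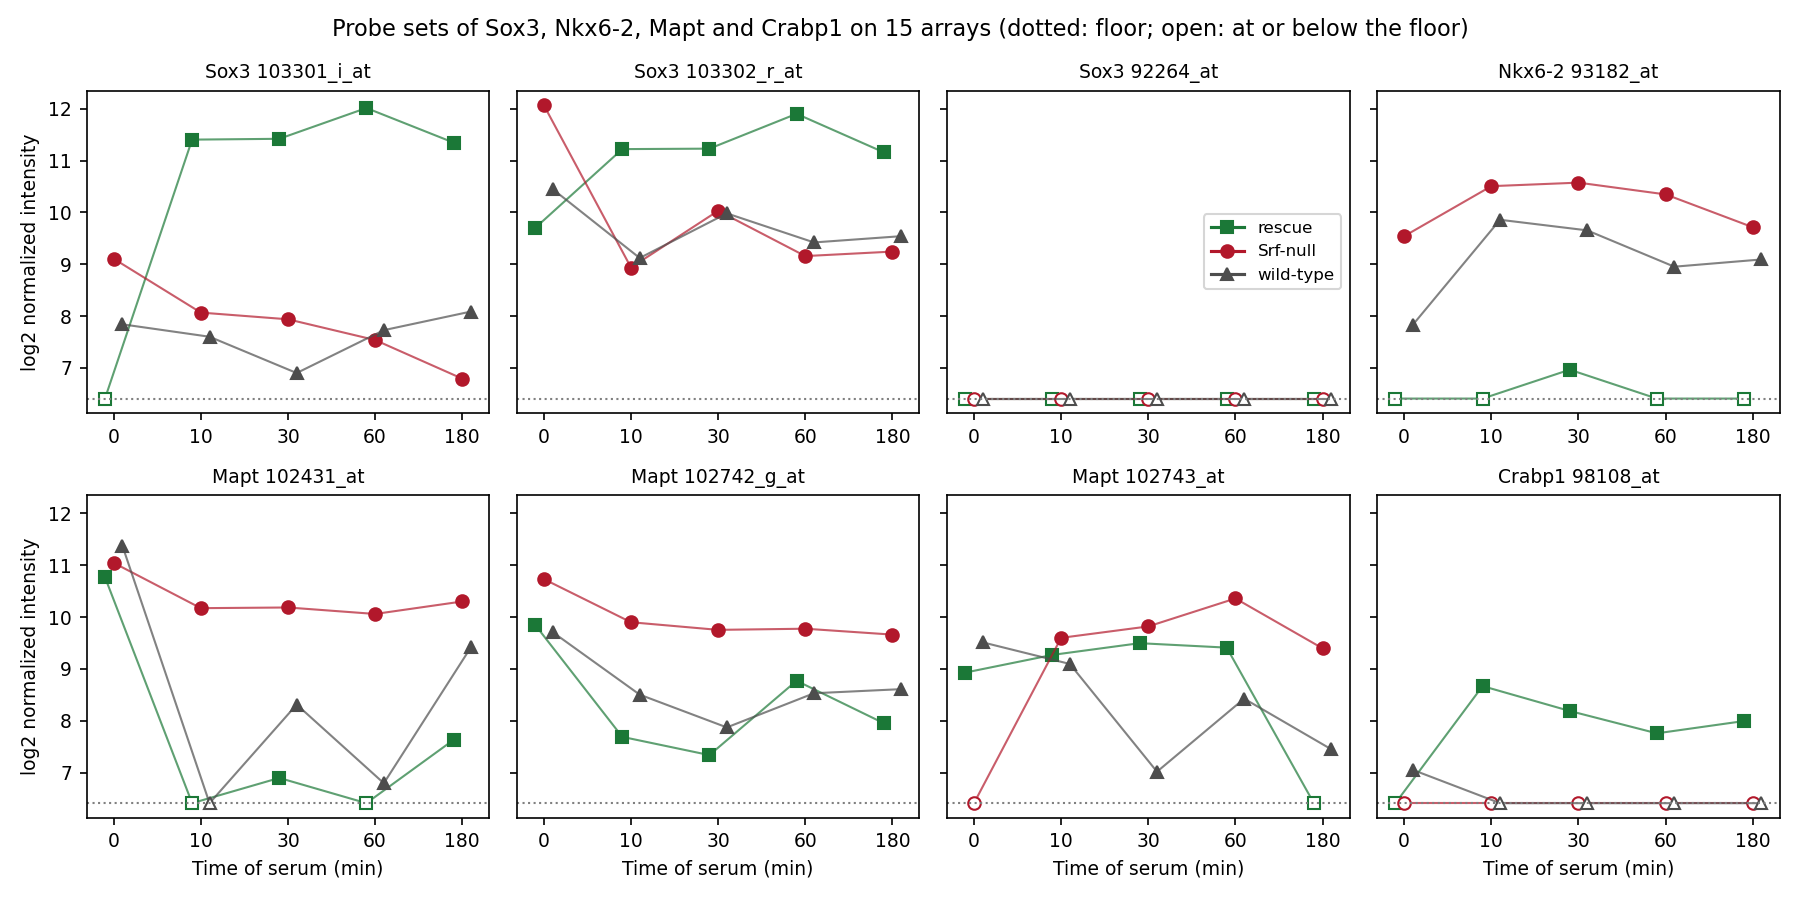
Log2 normalized intensity (y axis) of the 8 probe sets against time of serum in minutes (x axis), 1 point per array, for rescue (green squares), Srf-null (red circles) and wild-type cells (grey triangles). Open symbols at the dotted line are values at or below the floor of log2 6.41. From 10 min on the rescue arrays are highest for Sox3 on 103301_i_at and 103302_r_at and for Crabp1, and lowest for Nkx6-2, while Srf-null arrays are highest for Mapt on all 3 probe sets.

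Nkx6-2 ran the other way and was near background in the rescue line. On its 1 probe set, 93182_at, rescue cells read 3, -72, 125, 4 and -191 from 0 to 180 min, with 1 of 5 arrays above the floor. Srf-null cells read 746, 1456, 1527, 1304 and 841. Wild-type cells read 228, 929, 806, 496 and 546. The rescue range lay below both other ranges at all 5 times, 0 min included, whereas on Sox3 103301_i_at and Mapt 102431_at the rescue 0 min array departed from the later ones.

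Rescue minus Srf-null was -3.62 ± 0.36 over 15 arrays and -3.74 ± 0.28 over 12 for Nkx6-2. With 4 of 5 rescue arrays at the floor, the SE leaves out their spread and the size depends on the floor. Over 15 arrays this difference was -4.68 with the floor at the 35th percentile of all values and -1.33 with the floor at the 60th. Rescue minus wild-type was -2.56 ± 0.36 and -2.84 ± 0.28. Srf-null cells exceeded wild-type cells at 5 of 5 times, by 1.06 ± 0.36 over 15 arrays and 0.90 ± 0.28 over 12, although the ranges of the lines overlapped. Nkx6-2 therefore had the order Srf-null, wild-type, rescue, and the neighbours Srf-null and wild-type were not separated array by array.

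Mapt was highest in Srf-null cells. On 102431_at, rescue cells read 1746, 75, 119, 30 and 198 from 0 to 180 min. Srf-null cells read 2114, 1154, 1164, 1067 and 1261, and wild-type cells 2658, -9, 318, 111 and 684. After 0 min every Srf-null array was above every array of the other lines, and the rescue and wild-type ranges overlapped. At 0 min all 3 lines were high, and wild-type was the highest of them.

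On 102431_at, rescue minus Srf-null was -3.34 ± 0.48 over 12 arrays and -2.73 ± 0.56 over 15. Srf-null minus wild-type was 2.45 ± 0.48 and 1.89 ± 0.56. Rescue minus wild-type was -0.90 ± 0.48 and -0.84 ± 0.56. From 10 to 180 min the Srf-null arrays spanned only 0.24 on the log2 scale, against 1.22 in rescue and 3.01 in wild-type cells, where some arrays were at the floor.

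The probe set 102742_g_at shares its source sequence with 102431_at and gave the same directions in all pairs of lines. Rescue cells read 923, 206, 162, 437 and 248. Srf-null cells read 1702, 956, 863, 876 and 810, and wild-type cells 838, 363, 234, 370 and 390. The Srf-null array was the highest of the 3 lines at each of the 5 times. Rescue minus Srf-null was -1.84 ± 0.32 over 12 arrays and -1.64 ± 0.33 over 15, and Srf-null minus wild-type was 1.39 ± 0.32 and 1.32 ± 0.33. Rescue minus wild-type was -0.44 ± 0.32 and -0.33 ± 0.33, within about its error, with 3 of 5 times negative.

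The third Mapt probe set, 102743_at, comes from another source sequence and followed the other 2 in part. Rescue cells read 487, 617, 722, 681 and -60. Srf-null cells read -266, 776, 904, 1314 and 674, and wild-type cells 730, 547, 129, 344 and 175. From 10 min on the Srf-null arrays lay above all wild-type arrays, by 1.80 ± 0.58 over 12 arrays, but they overlapped the rescue arrays. With 15 arrays the same difference was 0.82 ± 0.76, since the Srf-null 0 min array was below 0. Rescue minus Srf-null was -1.15 ± 0.58 over 12 arrays and -0.41 ± 0.76 over 15. Rescue minus wild-type was positive here, 0.65 ± 0.58 and 0.40 ± 0.76, where both other Mapt probe sets were negative, and no difference of the rescue line on this probe set exceeded 2 SE.

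Crabp1 was detected in the rescue line and at background in the others. On its 1 probe set, 98108_at, rescue cells read 77, 407, 292, 216 and 255 from 0 to 180 min. Srf-null cells read 6, -101, -75, -192 and -94, and wild-type cells 133, 44, 75, -109 and -193. From 10 min on all 4 rescue arrays were above the floor and all 8 arrays of the other lines were below it. The rescue 0 min array was below the floor and the wild-type 0 min array above it. Rescue cells were at least 3.35-fold above both lines over 12 arrays, a log2 difference of 1.74 ± 0.20 from the floor. All 8 arrays of the other lines were set to the same floor value, so this SE does not measure their spread. With 15 arrays rescue minus Srf-null was 1.39 ± 0.35 and rescue minus wild-type 1.27 ± 0.35. No fold is given between Srf-null and wild-type cells, since both were at background.

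**Figure D2:**
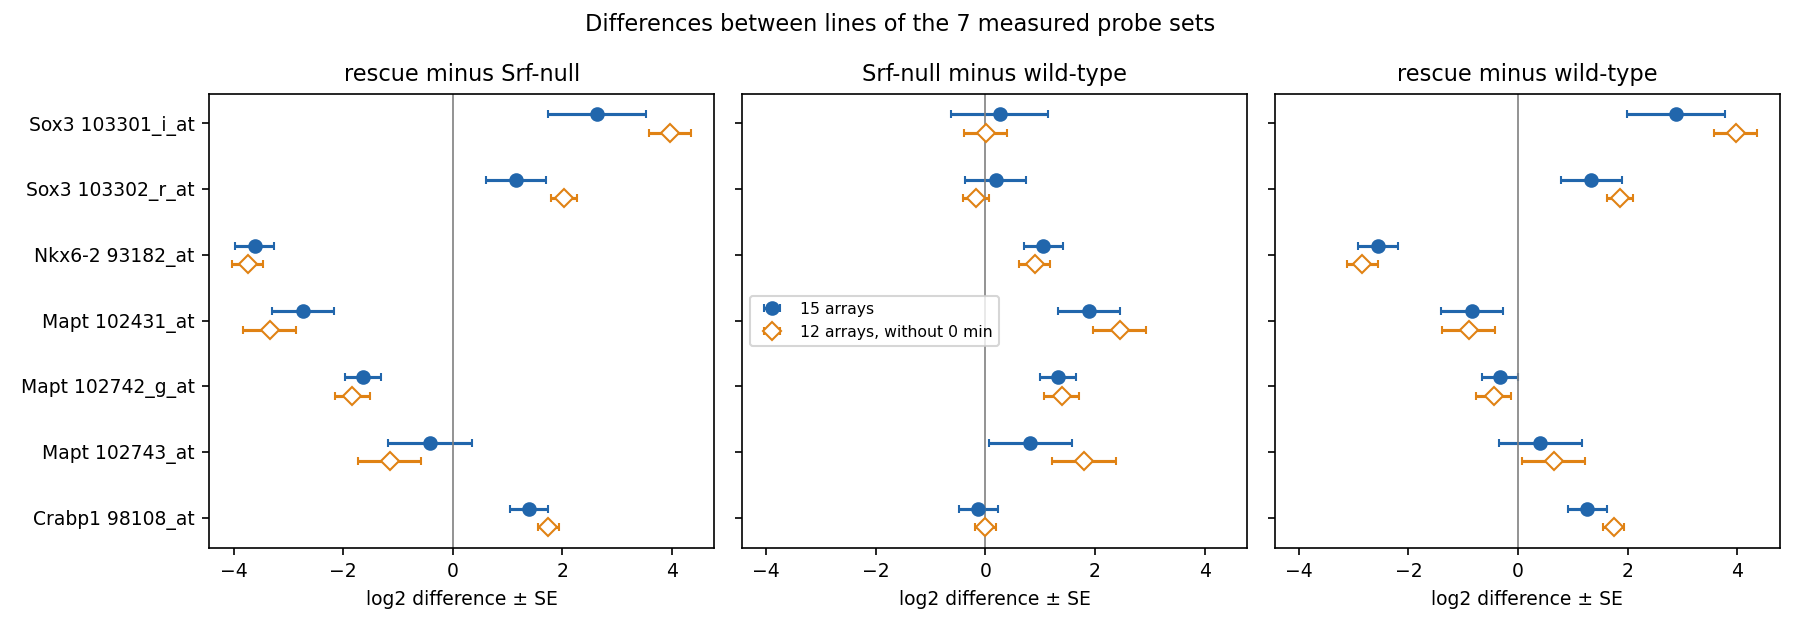
Log2 difference between lines (x axis) with its SE for the 7 measured probe sets (y axis), in rescue minus Srf-null, Srf-null minus wild-type and rescue minus wild-type cells; filled circles use 15 arrays and open diamonds the 12 arrays without 0 min. Sox3 and Crabp1 lie right of 0 wherever the rescue line is compared, Nkx6-2 lies left of 0 there, and the Mapt probe sets lie right of 0 in Srf-null minus wild-type.

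By pairs of lines from 10 min on, the genes fell into 3 patterns. Sox3 and Crabp1 were higher in the rescue line than in both others. Nkx6-2 was lower in the rescue line than in both others. Mapt was higher in Srf-null cells than in both others, although on 102743_at the Srf-null and rescue ranges overlapped. From 10 min on, 6 of 7 measured probe sets did not overlap between rescue and Srf-null cells, with 102743_at overlapping, where 9.32% of all tested probe sets had that separation. Between Srf-null and wild-type cells the count was 3 of 7, all of Mapt, against 5.79% of all tested, and between rescue and wild-type cells 4 of 7, against 5.72%. The genes had been chosen on these comparisons, so nothing is read from these counts.

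The share of non-positive values differed between lines, so the differences were also computed between arrays of like share. At a low share, Srf-null minus wild-type at 10 min was 3.76 on Mapt 102431_at, 1.40 on 102742_g_at, 0.65 for Nkx6-2 and 0.47 for Sox3 103301_i_at. At a high share, the rescue 10 min array minus the mean of the Srf-null 30, 60 and 180 min arrays was 3.98 for Sox3 103301_i_at, -3.80 for Nkx6-2, -3.77 for Mapt 102431_at and 2.26 for Crabp1. These differences between few arrays have no error, and they had the direction of the 12-array values, except that Sox3 against wild-type was 0.00 there. With the share as a term in the 15-array model, rescue minus Srf-null was 1.98 ± 0.87 for Sox3 103301_i_at, -3.62 ± 0.39 for Nkx6-2, -2.46 ± 0.59 for Mapt 102431_at and 1.35 ± 0.39 for Crabp1. In the 12-array model the same differences were 3.75 ± 0.48, -3.84 ± 0.34, -3.35 ± 0.61 and 1.96 ± 0.20. Srf-null minus wild-type with that term was 1.38 ± 0.99 over 15 arrays and 0.28 ± 0.52 over 12 for Sox3 103301_i_at, and 1.43 ± 0.68 and 2.45 ± 0.68 for Mapt 102431_at.

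Serum itself was a comparison that the choice of genes had not used, and it could be tested. Of the 7 probe sets, 0 passed the test between baseline (0 and 10 min) and the early phase (30 and 60 min), or between baseline and 180 min, averaged over lines (limma, Benjamini-Hochberg adjusted p from 0.995 to 1 and of 1). Over all 9558 probe sets the calls at an adjusted p under 0.05 were 0% early and 0.0523% late. Of the 7, 0 reached an unadjusted p under 0.05 in either comparison, where 2.54% early and 4.05% late of all probe sets did. The mean early change ran from -1.25 (Mapt 102431_at) to 0.52 (Sox3 103301_i_at) and the late change from -1.05 (Mapt 102743_at) to 0.34.

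Whether serum acted differently in Srf-null cells was tested as the response of Srf-null cells minus the mean response of rescue and wild-type cells. Here too 0 of 7 probe sets were called, early or late (limma, adjusted p from 0.56 to 0.991 and from 0.606 to 1), against 0.0209% and 0.0105% of all tested. At an unadjusted p under 0.05, which 8.61% early and 7.76% late of all probe sets reached, stood 1 of the 7 in each, Mapt 102743_at, with 2.70 ± 1.16 early and 3.67 ± 1.42 late. That value depended on which Srf-null baseline array was used. Without the Srf-null 10 min array, the 0 min array was the only Srf-null baseline, and the value became 4.30 early and 5.26 late. Without the 0 min arrays of all lines it was 1.09 early and 2.05 late. The Srf-null 0 min value of this probe set was -266.

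With the 12 arrays, 0 of 7 were again called in all 4 serum comparisons, where 0.691%, 1.74%, 0.596% and 1.56% of all probe sets were (early, late, early difference, late difference). The lowest adjusted p was 0.34, of Mapt 102743_at late (limma, -1.57 ± 0.47), and Mapt 102431_at had 1.45 ± 0.50 late, the opposite direction for a probe set of the same gene. These 2 had an unadjusted p under 0.05 late, where 11.9% of all probe sets did. In the early comparison and in both differences 0 of 7 did, against 6.3%, 10.8% and 12.1%. With 15 arrays the SEs were 0.35 to 1.18 for the mean response over lines and 0.75 to 2.50 for its difference between lines. With 12 arrays they were 0.12 to 0.50 and 0.26 to 1.07. Changes well above these errors also went uncalled, such as -1.57 ± 0.47, so the lack of calls does not show that serum had no effect.

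Several changes from 0 to 10 min were large by comparison with those after 10 min, but not all were. In rescue cells Sox3 103301_i_at was 4.997 higher on the log2 scale at 10 min than at 0 min, and Mapt 102431_at changed by -4.36. In wild-type cells Mapt 102431_at changed by -4.97 and Nkx6-2 by 2.03. In Srf-null cells Sox3 103302_r_at changed by -3.13 and Mapt 102743_at by 3.19. Mapt 102743_at went the other way, with 0.34 in rescue and -0.42 in wild-type cells, where the arrays from 10 to 180 min spanned 3.09 and 2.08. Each change from 0 to 10 min is a difference of 2 single arrays, 1 of which is a 0 min array, so none is a measured response to serum.

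The genes whose values over the 15 arrays were most like each member are given by Pearson's r, as a description in which line, time and array quality are shared by all points. For Nkx6-2 they were Krt17, a type I keratin (r = 0.953), Golm1, a Golgi membrane protein (0.890), and Gbx2, a homeobox gene of the midbrain and hindbrain boundary (0.859). Krt17 read -74 to 211 in rescue, 525 to 906 in Srf-null and 317 to 780 in wild-type cells. For Crabp1 they were Dab2, an endocytic adaptor (0.940), Plcg2, a phospholipase (0.919), and Sox3 itself through 103301_i_at (0.893). Crabp1 was above the floor on 5 of 15 arrays and its other values entered as the floor, so these r values rest largely on those 5 arrays. Dab2 was above the floor in rescue cells alone, at -3 to 353, against -339 to 4 in Srf-null and -295 to 24 in wild-type cells.

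For Mapt 102742_g_at they were Lgals3, the lectin galectin-3 (0.910), Siah1b, a ubiquitin ligase (0.881), and Defa23, an alpha-defensin (0.853). Lgals3 read 1273 to 3593 in rescue, 4509 to 7632 in Srf-null and 1648 to 5683 in wild-type cells. For Sox3 103302_r_at the closest were Adgrl1, an adhesion receptor (0.848), Cxcl5, a chemokine (0.815), and Anapc11, a subunit of the anaphase-promoting complex (0.810). Adgrl1 ranged from 1365 to 2434 in rescue, 1275 to 2371 in Srf-null and 1286 to 1848 in wild-type cells, so its lines overlapped. Without the 0 min arrays r stayed between 0.795 (Defa23) and 0.977 (Krt17) for the 12 pairs.

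Other genes of the nervous system and of retinoic acid handling were tested between lines as lists. A list of 49 neural transcription factors had 25 tested genes, a list of 54 neuronal and glial structure genes had 34, and a list of 36 retinoic acid handling and target genes had 17. With 15 arrays, Gbx2 was the only gene called in any list. It stands in both the transcription factor and the retinoic acid list, and it fell in rescue against Srf-null cells (limma, -2.72 ± 0.37, adjusted p = 0.00847), where 0.22% of all tested probe sets were called and 0.105% called lower. In rescue cells Gbx2 read 133, 454, 338, 371 and 611 from 0 to 180 min. In Srf-null cells it read 1772, 2517, 2748, 1972 and 2372, and in wild-type cells 2273, 1591, 2173, 1780 and 919. All rescue arrays were below all others, as they were for Nkx6-2.

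In Srf-null against wild-type and in rescue against wild-type cells, 0 members of the 3 lists were called by limma with 15 arrays. The background there was 0% in both. At an unadjusted p under 0.05 the counts were 2 and 2 of 25 transcription factors, 0 and 2 of 34 structure genes, and 0 and 1 of 17 retinoic acid genes, where 9.58% and 7.25% of all probe sets reached it. For rescue against Srf-null cells the counts were 6 of 25, 2 of 34 and 2 of 17, where 9.19% of all probe sets reached it. The median difference of the transcription factors was 0.20 in rescue minus Srf-null, -0.07 in Srf-null minus wild-type and 0.06 in rescue minus wild-type cells, beside -0.02, 0.02 and 0 over all probe sets. The structure genes had medians of -0.02, -0.06 and 0.03, and the retinoic acid genes of -0.18, 0.13 and -0.14.

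Without the 0 min arrays, structure genes passed the test in both directions in rescue against Srf-null cells, where 2.25% of all probe sets were called, 1.17% higher and 1.08% lower. Of 34, 3 rose and 1 fell, whereas with 15 arrays 0 rose and 0 fell. The list values without 0 min were added after seeing the data, and the lists were chosen with earlier results known. Uchl1, a neuronal deubiquitinating enzyme, rose by 0.87 ± 0.12 (limma, adjusted p = 0.00962). From 0 to 180 min it read 508, 2462, 2496, 2611 and 1870 in rescue, against 808, 1469, 1126, 1463 and 1099 in Srf-null cells. Stmn2, a microtubule regulator of growing axons, rose by 1.57 ± 0.22 (limma, adjusted p = 0.0118), with 2263 to 2796 in rescue and 514 to 1041 in Srf-null cells from 10 min on.

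Gap43, a growth cone protein, rose by 1.70 ± 0.33 (limma, adjusted p = 0.0411), with 251 to 879 in rescue and 93 to 188 in Srf-null cells from 10 min on. Vamp2, a protein of synaptic vesicles, fell (limma, -1.22 ± 0.25, adjusted p = 0.0487), with 297 to 470 in rescue and 743 to 1165 in Srf-null cells. Gbx2 fell as before (limma, -2.47 ± 0.30, adjusted p = 0.00616), and was the 1 of 25 transcription factors and of 17 retinoic acid genes that passed. An unadjusted p under 0.05 was reached by 5 of 25 transcription factors, 9 of 34 structure genes and 2 of 17 retinoic acid genes, where 13.6% of all probe sets reached it. In Srf-null against wild-type cells 0 list members were called by limma over 12 arrays (0.324% of all), with 1 of 25, 6 of 34 and 0 of 17 at an unadjusted p under 0.05, which 12.1% of all reached. In rescue against wild-type cells (0.398% of all called, 0.136% higher) Uchl1 rose (limma, 0.74 ± 0.12, adjusted p = 0.0447), and Gbx2 missed the threshold (limma, -1.84 ± 0.30, adjusted p = 0.0528). There 3 of 25, 6 of 34 and 2 of 17 had an unadjusted p under 0.05, which 9.85% of all reached.

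**Figure D3:**
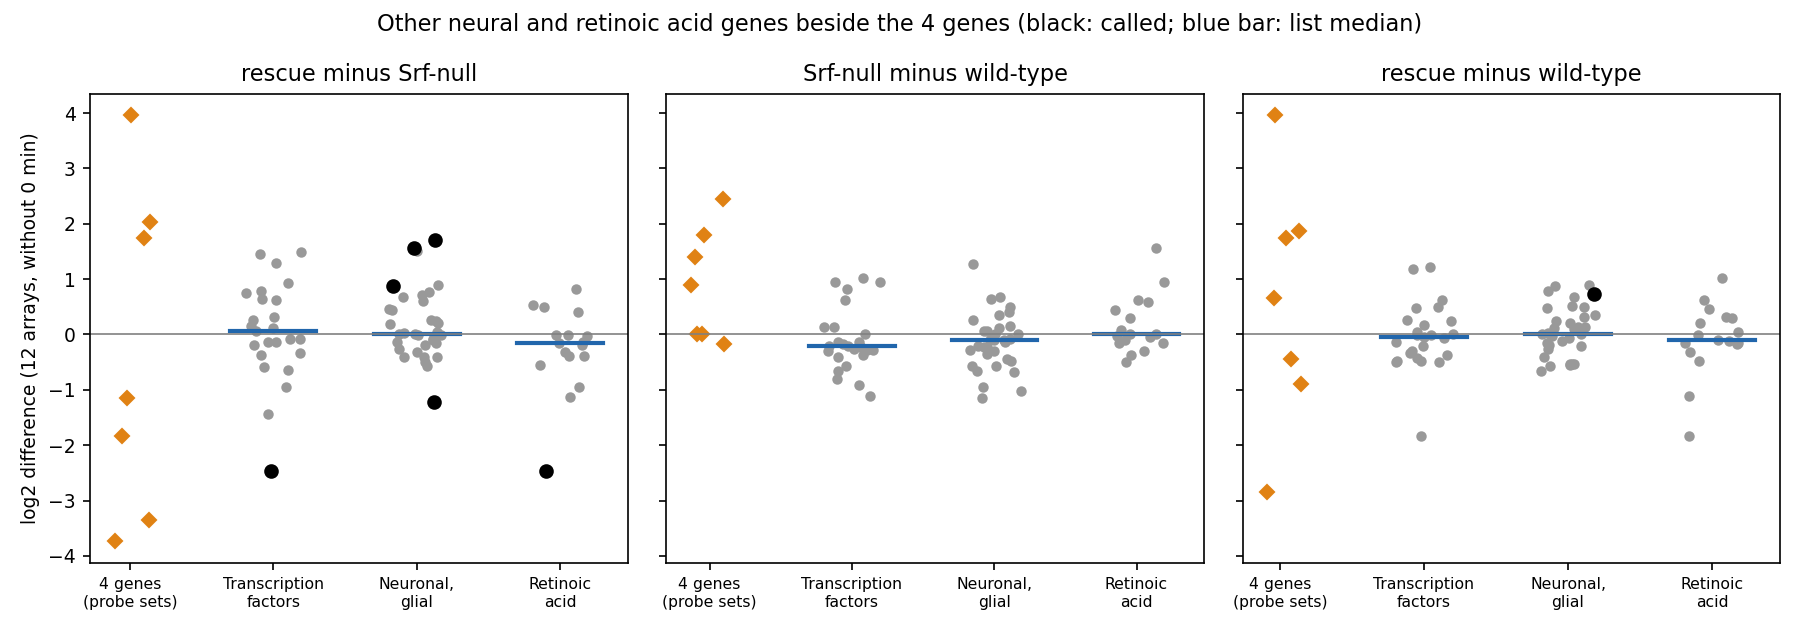
Log2 difference between lines over the 12 arrays without 0 min (y axis) for the 7 probe sets of the 4 genes (orange diamonds) and for each tested gene of the 3 lists (grey, or black where called; blue bar, list median), in the 3 pairs of lines. The 4 genes were chosen for their differences and reach 3.97 and -3.74, while the list medians lie near 0 and Gbx2 (-2.47) is the lowest list member in rescue minus Srf-null cells.

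In the serum comparisons, 0 list members were called with 15 arrays by limma. At an unadjusted p under 0.05 the counts in early, late, early difference and late difference were 0, 2, 1 and 2 of 25 transcription factors, 0, 0, 4 and 5 of 34 structure genes, and 0, 1, 1 and 1 of 17 retinoic acid genes. Over all probe sets the shares were 2.54%, 4.05%, 8.61% and 7.76%. With 12 arrays and 3 residual degrees of freedom, Meis2, a homeodomain cofactor, was called in all 4 comparisons, with an early change of -0.65 ± 0.03 (limma, adjusted p = 0.0152), where 0.659% of all probe sets were called lower. Its 5 wild-type values were -128, 325, -288, -173 and -91, and all 5 rescue values were below the floor, so the early call rests on the wild-type 10 min array, 1 value above the floor. In the late comparison 1.16% of all probe sets were called higher. Neurog2, a proneural transcription factor, rose late by 0.37 ± 0.03 (limma, adjusted p = 0.019), and Elavl3, a neuronal RNA-binding protein, rose late by 0.27 ± 0.03 (limma, adjusted p = 0.0358). From 10 min on, Neurog2 was above the floor on 2 arrays, rescue 180 min at 115 and wild-type 180 min at 136, and Elavl3 on 1, wild-type 180 min at 151, so these calls and their small errors rest on values near the floor. Neurog2 was also called in the late difference (limma, -0.55 ± 0.06, adjusted p = 0.0496), on the same 2 values.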

How the data were processed

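Total RNA of 3 mouse ES cell lines at 5 times of serum was measured on 15 arrays. The deposited table holds linear intensity values for 12654 probe sets, 66 of them controls; which software and scaling the authors used is not given in the sources used here. Of the values on each array, 24.9% to 41.6% were 0 or negative, and whether a background or a mismatch signal had been subtracted is not stated. Trimmed array means lay between 350 and 1439 intensity units, and the number of arrays limits the precision.

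Samples were grouped by title, with 0 columns left without a sample. Values were quantile-normalized, raised to the 40th percentile (84.98) and log2-transformed, and 9558 probe sets above it on at least 2 arrays were tested. Names came from GEO's annotation of the platform, brought up to date by gene identifier. Of the probe sets, 10298 had 1 symbol, 363 had several and stayed unnamed, and 1993 were not listed. Testing was done in R 4.3.3 with limma 3.58.1 (lmFit, eBayes with an intensity trend, two-sided, Benjamini-Hochberg over all tested probe sets, call under 0.05), checked on simulated data. Lines were compared with time as a second factor (8 residual degrees of freedom, 6 without 0 min), and serum phases as line by phase means (6, or 3 without 0 min). Nothing in the labels says that the samples came from separate cultures, so p-values reflect only how these samples vary over time, which may be technical.

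The 4 genes and all lists were chosen with earlier results of these data known. Named genes were all probe sets of the 4; the 3 most correlated genes for each one's brightest probe set; list members called, or up to 3 by p; and ES cell markers, with Igf2 and Eif2s3y for the 0 min arrays. Other genes of the marker lists were named after their values were seen. Each list gene was read by its brightest tested probe set. Alternatives were other floors, common-median scaling, no filter, a term for each array's share of non-positive values, and leaving out each array or all 0 min arrays. The marker and list values without 0 min, the 35th percentile floor, the arrays of like share, and the share term without the 0 min arrays were added after seeing the data.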

Additional observations from a re-analysis of the deposited data

Results flagged for a closer look

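Among 20 groups of 5 arrays with values above the floor, 8 held an array far from the other 4 by Dixon's ratio of the gap to the range. Chance gives about 1 in 20, but not for 2 of the 8, where the other 4 values had been raised to the same floor and the ratio is 1 by construction. Of the 8, 6 were 0 min arrays. For Sox3 103301_i_at the rescue 0 min array read 49 against a next lowest of 2609 (ratio 0.881). For Mapt 102431_at the rescue 0 min array read 1746 against a next highest of 198 (0.72), and the Srf-null 0 min array 2114 against 1261 (0.756). For Mapt 102742_g_at the Srf-null 0 min array read 1702 against 956 (0.777). For Mapt 102743_at the Srf-null 0 min array read -266 against 674 (0.756), and the rescue 180 min array -60 against 487 (0.816). For Nkx6-2 the rescue 30 min array read 125 with the other rescue arrays at the floor (ratio 1). For Crabp1 the wild-type 0 min array read 133 with the other wild-type arrays at the floor (ratio 1).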

How the results depend on the processing

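Calls over all 9558 probe sets are given in the order rescue against Srf-null, Srf-null against wild-type, rescue against wild-type, early, late, early difference and late difference. The 15 arrays gave 21, 0, 0, 0, 5, 2 and 1, and the 12 arrays without 0 min 215, 31, 38, 66, 166, 57 and 149. Scaling to a common median gave 10 in the first and 44 in the early difference. A floor at the 60th percentile gave 37, 1 and 5 for the lines, 2 late, and 0 and 2 for the differences. No filter gave 2 in each comparison with wild-type, 15 early, 233 late, and 40 and 248 for the differences. A term for each array's share of non-positive values gave 10 in the first, 0 late, and 5 and 15 for the differences. A floor at the 35th percentile, added after seeing the data, gave 2 in rescue against wild-type and 0 in the late difference. Leaving out 1 array gave 4 to 103 (103 with rescue 0 min left out, 90 with Srf-null 0 min and 48 with wild-type 0 min), 0 to 20 (highest with Srf-null 0 min left out), 0 to 20 (highest with rescue 0 min left out), 0 to 86, 4 to 50, 0 to 385 and 1 to 258 (the last 4 most without Srf-null 10 min; 27 early and 135 in the early difference without Srf-null 30 min). The cause was not tested. Of 459 values of the members' line differences, 436 were classed as unchanged, of which 139 equal the value of all 15 arrays, mostly because the setting does not touch that pair of lines. The class was not set by the size of the move alone. Sox3 103301_i_at in rescue minus Srf-null counted as unchanged at 3.96 without the 0 min arrays, from 2.63. In Srf-null minus wild-type it counted as moved at -0.045 without the wild-type 30 min array, from 0.26. The sign changed in 14 values, all of Sox3 or Crabp1 in Srf-null minus wild-type, Mapt 102742_g_at in rescue minus wild-type, or Mapt 102743_at where rescue was compared. With the 60th percentile floor Nkx6-2 was -1.33 in rescue minus Srf-null and -0.46 in rescue minus wild-type, and Crabp1 was no longer tested, by construction of that floor. Of 542 values of the members' serum responses, 79 changed sign and 2 were classed as stronger. Both were of Mapt 102743_at without the Srf-null 10 min array, which left the 0 min array as the only Srf-null baseline. A floor at the 20th percentile was not run because it lay at -102.4, which has no log, and the late comparison has no value for a line without its 180 min array. The line comparisons pair the arrays of the 3 lines by time, and the labels carry no replicate numbers for a further block.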

Other observations

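The structure genes called without the 0 min arrays also stood apart on those arrays. Uchl1 read 508 on the rescue 0 min array, against 1870 to 2611 on the later rescue arrays. Vamp2 read 1484 on the rescue 0 min array and 297 to 470 on the later ones, and in Srf-null cells 179 at 0 min and 743 to 1165 later. Gap43 and Stmn2 were highest at 0 min in Srf-null cells, at 718 against 93 to 188 later and at 1837 against 514 to 1041. The part of the 0 min arrays in the line differences was not tested beyond leaving them out.

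Among the pluripotency markers, Dppa3, a maternal factor of early embryos, was listed at 352 to 2876 in rescue, -76 to 414 in Srf-null and 28 to 1635 in wild-type cells, and Esrrb, an orphan nuclear receptor, at 100 to 259, -187 to 257 and -192 to 178. These were the 2 of 12 not above the floor on all arrays.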
